A study of Mus musculus with 3 samples.

Results

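Collagens are the proteins that give connective tissue its tensile framework, and the mouse genome spreads them over many genes, each coding for 1 chain. Chains wind around each other in groups of 3 before secretion. Fibrillar collagens then pack into the banded fibrils of mesenchyme, type IV collagens form the sheet-like network of basement membranes under epithelia and around vessels and muscle, and the FACIT collagens, fibril-associated chains with an interrupted helix, sit on the surface of fibrils. In the embryonic gut most fibrillar collagen is made by the mesenchyme around the epithelial tube. The genes described here were all those whose symbol has the form Col, a number, a, a number. The rule found 43 of the 33762 features of the deposited gene table, namely 11 fibrillar, 6 basement membrane, 9 FACIT and 17 other chains, and it used no measured value.

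Polyadenylated RNA was sequenced from 3 segments of the gut of wild-type embryos of strain Bl6/C57 at E13.5, with 1 sample per segment. The caecum is the blind pouch at the junction of small and large intestine, the colon follows it, and the sample named ileum is the last of 3 equal portions of the small intestine. No treatment or altered allele is involved, and whether a sample came from 1 embryo or from a pool is not given in the sources used here. Each whole segment holds mesenchyme, muscle, epithelium, nerve, vessel and blood cells, so fewer cells of a type and less RNA per cell cannot be told apart. Cdx2, a transcription factor of intestinal epithelium, was present in all 3 libraries at 17.5, 18.8 and 9.87 RPKM in ileum, caecum and colon, and no marker that tells these segments apart was checked here. Read counts summed to 50079617 in ileum, 64439701 in caecum and 50772855 in colon.

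With 1 library per segment no difference has a replicate check, and no p-value is given. A fold is the ratio of counts scaled by TMM, a factor that sets the bulk of genes equal between libraries, and the interval in brackets is an exact (Clopper-Pearson) 95% interval that covers no error but that of counting. Genes were compared where the higher library held 20 counts or more, and a gene is called apart at a fold of 2 or more. Levels are compared between genes in RPKM, counts scaled for gene length and library size. The 3 comparisons share libraries, so they are not independent of each other.

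Summed over all 43 genes, collagen transcripts were nearly level along the gut, while their make-up differed between segments. They held 0.720% of all counts in ileum (0.718 to 0.722), 0.709% in caecum (0.707 to 0.711) and 0.717% in colon (0.715 to 0.719). The summed level was 901, 870 and 895 RPKM in the same order. Fibrillar chains held 56.3% of it in ileum, 59.5% in caecum and 60.1% in colon, and Col3a1 alone held 28.4%, 30.9% and 32.6%. Basement membrane chains summed to 82.4 RPKM in ileum, 116 in caecum and 96.0 in colon. The beaded filament chains of type VI went the other way, with 153 RPKM in ileum, 79.1 in caecum and 94.0 in colon. FACIT chains summed to 84.4, 69.5 and 73.8 RPKM.

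**Figure D1:**
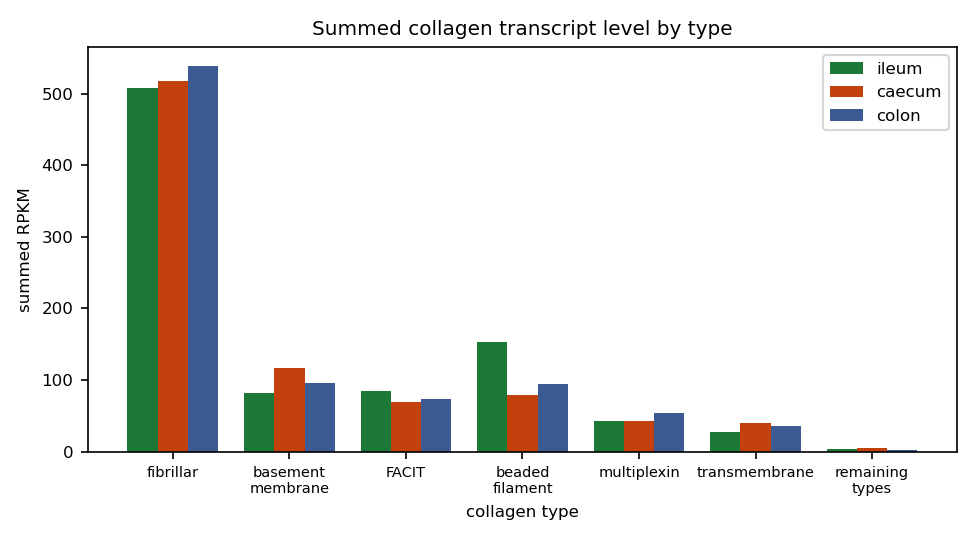
Summed RPKM (vertical axis) of the collagen genes of each type (horizontal axis) in ileum, caecum and colon, 1 bar per library, so there are no error bars. Fibrillar chains lie between 508 and 538 RPKM in every segment, and the beaded filament bar of ileum, at 153, is the tallest of its type.

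All 43 genes had a count in every library, and 41 reached 20 counts in at least 1 of them. The remaining 2 were Col6a5, a type VI chain, with 12, 13 and 3 counts in ileum, caecum and colon, and Col10a1, a chain of hypertrophic cartilage, with 3, 4 and 6. Col10a1 lies wholly within Nt5dc1 on the opposite strand, which had 593, 603 and 592 counts. Use of strand in counting is not given, and whether the few Col10a1 counts are its own was not tested. Of the 41 genes compared between caecum and ileum, 8 were at least 2-fold higher in caecum, against 4.59% of all genes, and 7 were at least 2-fold lower, against 2.52%. Between caecum and colon 5 of 41 were higher in caecum, against 5.11% of all genes, and 3 were lower, against 2.74%. Between colon and ileum 6 of 40 were higher in colon, against 4.04%, and 5 were lower, against 4.29%. Counted in either direction, 15 of 41 (36.6%), 8 of 41 (19.5%) and 11 of 40 (27.5%) were apart, against 7.11%, 7.84% and 8.33% of all genes in these 3 comparisons. Their median log2 ratios were 0.05, -0.003 and 0.009, beside 0.009, 0.009 and -0.004 for all genes tested. In at least 1 of the 3 pairs 19 of the 41 collagen genes stood apart, against 13.7% of all genes compared in any pair, and 22 stayed within 2-fold in all 3.

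**Figure D2:**
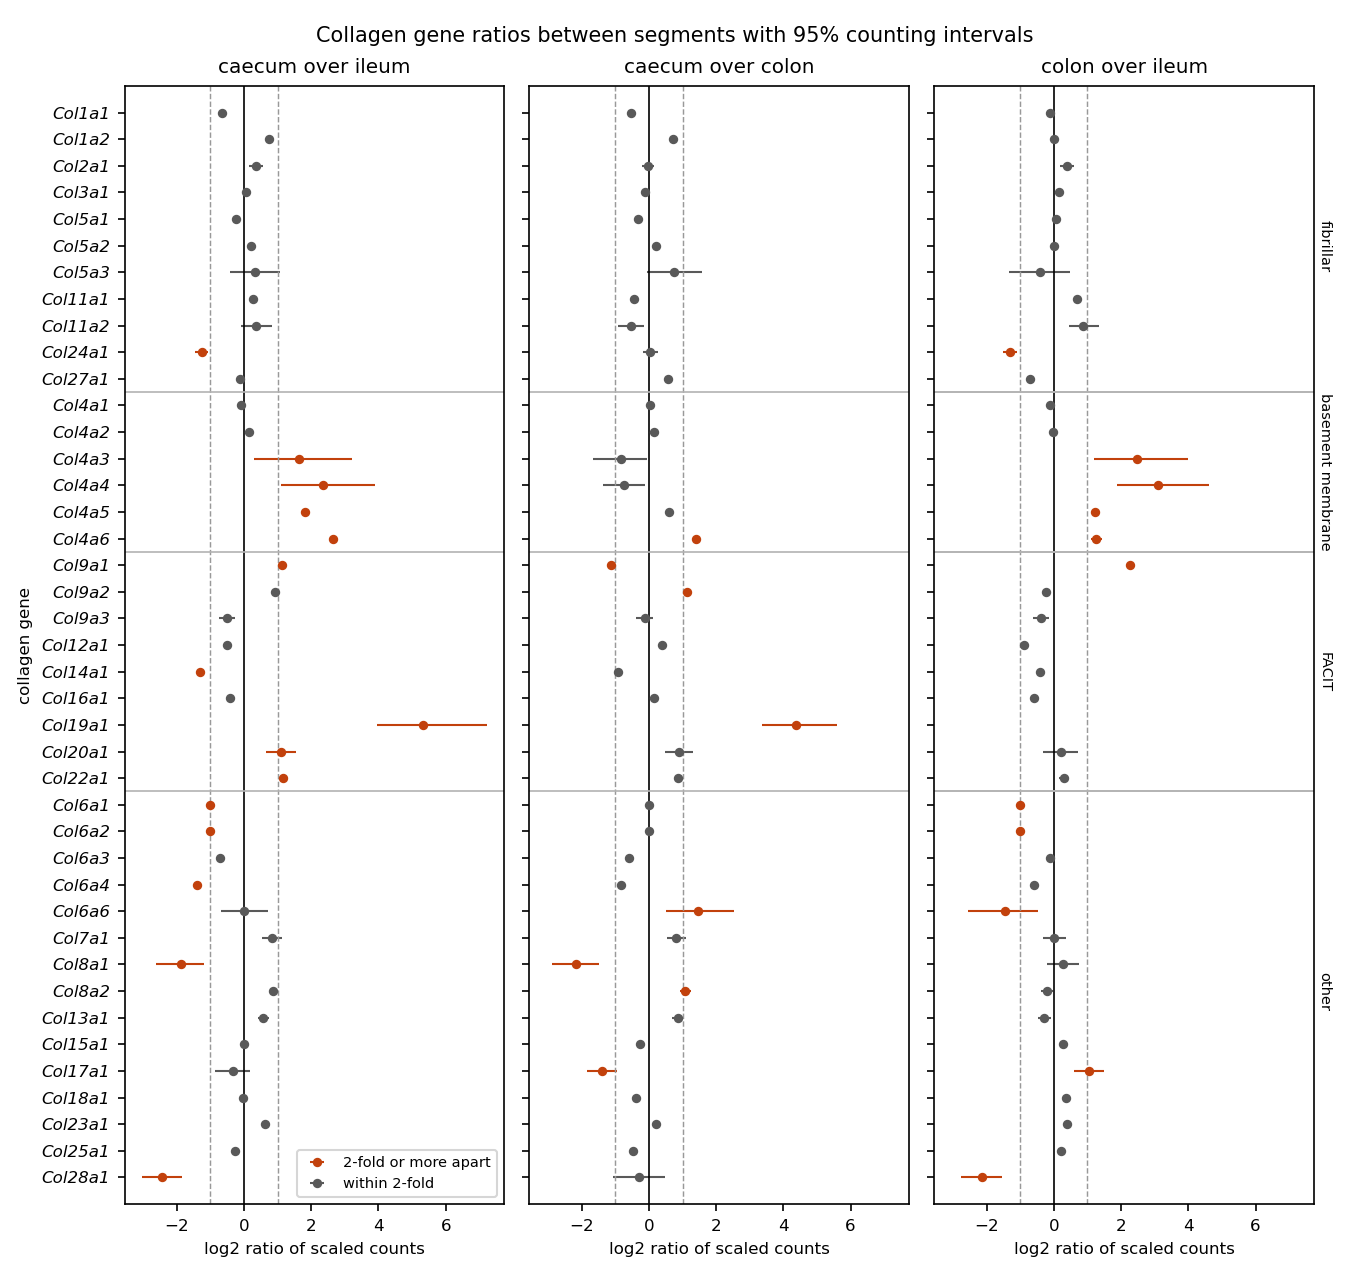
Log2 ratio of scaled counts (horizontal axis) for each collagen gene at 20 counts or more in a compared library (vertical axis), in 3 panels for each pair of segments. Bars are 95% counting intervals, dashed lines mark 2-fold and coloured points are 2-fold or more apart. Col4a3 to Col4a6 lie to the right in both panels with ileum as the lower term, and most fibrillar chains lie near 0.

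Fibrillar genes stood apart about as often as all genes. Of 11 compared, 10 lay within 2-fold in all 3 pairs and 1 was apart in at least 1 pair, against 13.7% of all genes. The median log2 ratio was 0.21 for caecum over ileum, -0.02 for caecum over colon and 0.02 for colon over ileum. Col3a1 (ENSMUSG00000026043, mm9 chr1:45368383-45406551, plus strand) codes for the only chain of type III collagen, the main partner of type I in extensible tissue. It was the highest collagen gene per length in each segment, with 256 RPKM in ileum, 268 in caecum and 292 in colon. Its counts were 107552, 145189 and 124408, and the widest gap was 1.12-fold (1.12 to 1.13), colon over ileum.

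The genes of the type I chains, Col1a1 and Col1a2, went opposite ways in caecum. Type I is the main collagen of most fibrils and is usually built from 2 Col1a1 chains and 1 Col1a2 chain. Col1a1 (ENSMUSG00000001506, mm9 chr11:94797538-94814356, plus strand) had 34844 counts in ileum, 28724 in caecum and 32852 in colon, which is 106, 67.9 and 98.6 RPKM. It was 1.58-fold higher in ileum than in caecum (1.55 to 1.60) and 1.45-fold higher in colon than in caecum (1.42 to 1.47). Col1a2 (ENSMUSG00000029661, mm9 chr6:4454814-4491543, plus strand) had 28106, 60865 and 29305 counts, which is 46.2, 77.8 and 47.5 RPKM. It was 1.66-fold higher in caecum than in ileum (1.64 to 1.69) and 1.64-fold higher in caecum than in colon (1.62 to 1.67). Neither gene alone reached 2-fold, and ileum and colon lay close together for both.

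The ratio of Col1a1 to Col1a2 therefore stood apart in caecum. It was 2.29 in ileum (2.26 to 2.33), 0.873 in caecum (0.861 to 0.886) and 2.07 in colon (2.04 to 2.11) on the RPKM scale. Per length of the longest annotated coding transcript the same ratios were 1.12, 0.426 and 1.01, because the gene models behind the RPKM values have other lengths. The change between segments does not depend on length, and the caecal ratio was 2.63-fold below that of ileum and 2.38-fold below that of colon. Base composition moved weakly with the comparison. From the tenth of genes poorest in G and C to the richest, the median log2 ratio of caecum over ileum ran from -0.07 to 0.12, and the transcripts of Col1a1 and Col1a2 hold 58.9% and 55.7% G and C. With each ratio centred on genes of like composition, caecum over ileum was 0.582 for Col1a1 and 1.58 for Col1a2. An unnamed feature, Gm17329, overlaps Col1a1 on the opposite strand with 325, 233 and 309 counts, and use of strand in counting is not given in the sources used here.

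The type V and XI chains, which join type I in fibrils and limit their width, showed smaller differences. Col5a1 had 28.4, 24.3 and 30.5 RPKM in ileum, caecum and colon, and Col5a2 had 48.6, 56.8 and 49.3. Their ratio was 0.585 in ileum, 0.428 in caecum and 0.618 in colon, again lowest in caecum. The third type V gene, Col5a3, had 26, 42 and 20 counts, too few to place the segments in order. Col11a1 had 5.48, 6.65 and 9.05 RPKM and was 1.63-fold higher in colon than in ileum (1.55 to 1.71), while Col11a2 had 66, 110 and 125 counts and was 1.84-fold higher in colon than in ileum (1.36 to 2.52).

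Among the rarer fibrillar chains 1 gene stood apart. Col24a1 (ENSMUSG00000028197, mm9 chr3:144955436-145214975, plus strand) had 704, 382 and 293 counts, which is 1.84, 0.777 and 0.757 RPKM. It was 2.40-fold higher in ileum than in caecum (2.11 to 2.72) and 2.47-fold higher than in colon (2.15 to 2.84), with caecum and colon alike per length. Col27a1, a chain with a shortened helix, had 13.8, 12.9 and 8.68 RPKM and was lowest in colon. Col2a1, the main collagen of cartilage, had 330, 550 and 442 counts, or 1.09, 1.42 and 1.45 RPKM.

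**Figure D3:**
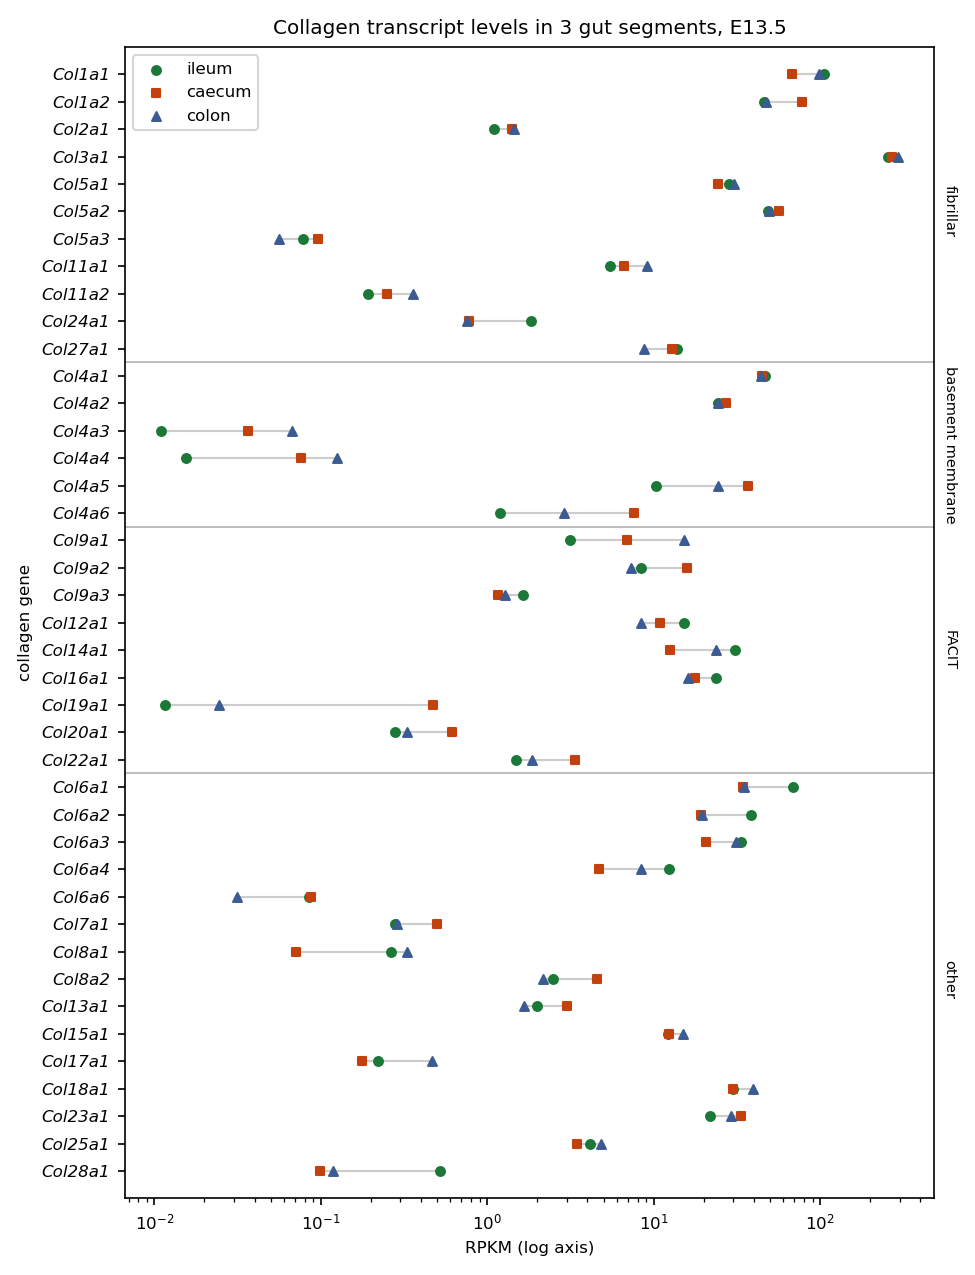
RPKM on a log axis (horizontal) of each collagen gene at 20 counts or more in a library (vertical), 1 point per segment, joined by a line over their range and grouped by class. Col3a1 is the highest at 256 to 292 RPKM, and Col19a1 has the widest range, from 0.0116 in ileum to 0.472 in caecum.

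Basement membrane genes showed a split between the chains found in nearly all basement membranes and the remaining chains. Of 6 genes, 4 were at least 2-fold higher in caecum than in ileum, against 4.59% of all genes. The same 4 were at least 2-fold higher in colon than in ileum, against 4.04%, namely Col4a3, Col4a4, Col4a5 and Col4a6. Col4a3 and Col4a4 had only 6 counts each in ileum. The median log2 ratio of the class was 1.72 for caecum over ileum, 0.09 for caecum over colon and 1.24 for colon over ileum. Col4a1 and Col4a2, the chains of the common network, stayed within 1.12-fold in all 3 pairs. Col4a1 (ENSMUSG00000031502, mm9 chr8:11198423-11312826, minus strand) had 46.6, 44.4 and 44.0 RPKM in ileum, caecum and colon. Col4a2 (ENSMUSG00000031503, mm9 chr8:11312805-11449287, plus strand) had 24.3, 27.2 and 24.4.

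Col4a5 and Col4a6 form a network with each other in the basement membranes of smooth muscle, skin and some epithelia. Col4a5 (ENSMUSG00000031274, mm9 chrX:137909928-138123778, plus strand) had 3472 counts in ileum, 15992 in caecum and 8348 in colon, which is 10.3, 36.9 and 24.5 RPKM. Caecum was highest, with 3.54-fold the ileal level (3.41 to 3.67) and 1.52-fold that of colon (1.48 to 1.56), and colon was 2.34-fold above ileum (2.25 to 2.43). Col4a6 (ENSMUSG00000031273, mm9 chrX:137599946-137908619, minus strand) had 477, 3912 and 1178 counts, which is 1.19, 7.59 and 2.90 RPKM. It was 6.31-fold higher in caecum than in ileum (5.73 to 6.95), 2.63-fold higher than in colon (2.46 to 2.81), and 2.40-fold higher in colon than in ileum (2.16 to 2.68). In both genes the order was caecum, colon, ileum, and the counting interval of each ratio excluded 1. Their ratio, Col4a5 to Col4a6, was 8.67 in ileum (7.88 to 9.56), 4.87 in caecum (4.70 to 5.04) and 8.44 in colon (7.94 to 8.98). Per length of the longest coding transcript it was 7.40, 4.16 and 7.21.

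Col4a3 and Col4a4, known from the kidney filter where they assemble with Col4a5, were close to the lower limit of the data. Col4a3 (ENSMUSG00000079465, mm9 chr1:82583496-82718634, plus strand) had 6, 24 and 34 counts and was 5.51-fold higher in colon than in ileum (2.29 to 16.0). Col4a4 (ENSMUSG00000067158, mm9 chr1:82447298-82583424, minus strand) had 6, 40 and 53 counts and was 8.58-fold higher in colon than in ileum (3.69 to 24.4). Against ileum, caecum was 3.08-fold higher for Col4a3 (1.22 to 9.20) and 5.13-fold higher for Col4a4 (2.16 to 14.8). Here colon was highest and ileum lowest, unlike Col4a5 and Col4a6, whose highest segment was caecum. A feature on the strand opposite Col4a3, C430014B12Rik, had 20, 30 and 22 counts.

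The 6 type IV genes lie in 3 head-to-head pairs. Both genes of a pair had the same highest segment in the Col4a3 and Col4a4 pair (colon) and the Col4a5 and Col4a6 pair (caecum), while Col4a1 was highest in ileum and Col4a2 in caecum by small margins. Col4a1 and Col4a2 overlap by 22 bases at their starts, Col4a3 and Col4a4 are 71 bases apart, and Col4a5 and Col4a6 are 1308 bases apart. The stretches before the starts of Col4a5 and Col4a6 are shown because these genes, unlike Col4a3 and Col4a4, differed between segments with 477 counts or more in every library. They come from RefSeq on GRCm38.p6, read 5′ to 3′ on the strand of the gene, without exon bases, with capitals for GGGCGG (the core of a GC box, CCGCCC when read from the other strand) and CCAAT.
Col4a6, chrX:141474077-141474326, minus strand: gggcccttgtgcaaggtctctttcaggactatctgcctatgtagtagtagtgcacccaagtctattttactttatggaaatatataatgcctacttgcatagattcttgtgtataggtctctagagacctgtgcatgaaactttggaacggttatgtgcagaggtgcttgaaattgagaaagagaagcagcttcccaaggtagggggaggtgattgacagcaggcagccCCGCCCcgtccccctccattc
Col4a5, chrX:141475169-141475384, plus strand: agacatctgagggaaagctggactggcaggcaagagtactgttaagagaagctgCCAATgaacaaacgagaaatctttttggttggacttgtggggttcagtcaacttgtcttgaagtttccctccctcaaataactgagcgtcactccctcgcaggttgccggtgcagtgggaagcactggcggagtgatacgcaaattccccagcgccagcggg
The Col4a6 window holds GGGCGG on its other strand, 21 bases before the annotated start, and the Col4a5 window holds CCAAT 196 bases before its start and GGGCGG 30 bases before it, beyond the end of the printed stretch. In windows from 250 bases before to 50 bases after each annotated start, counted on both strands, GGGCGG was present in 23 of the 38 collagen windows (60.5%) and in 35.7% of all 32851 windows. For CCAAT the shares were 34.2% and 37.4%, and for TATAAA the shares were 13.2% and 13.6%. The 38 windows covered 35 of the 43 genes, and a match of letters is a description, not a binding site.

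**Figure D4:**
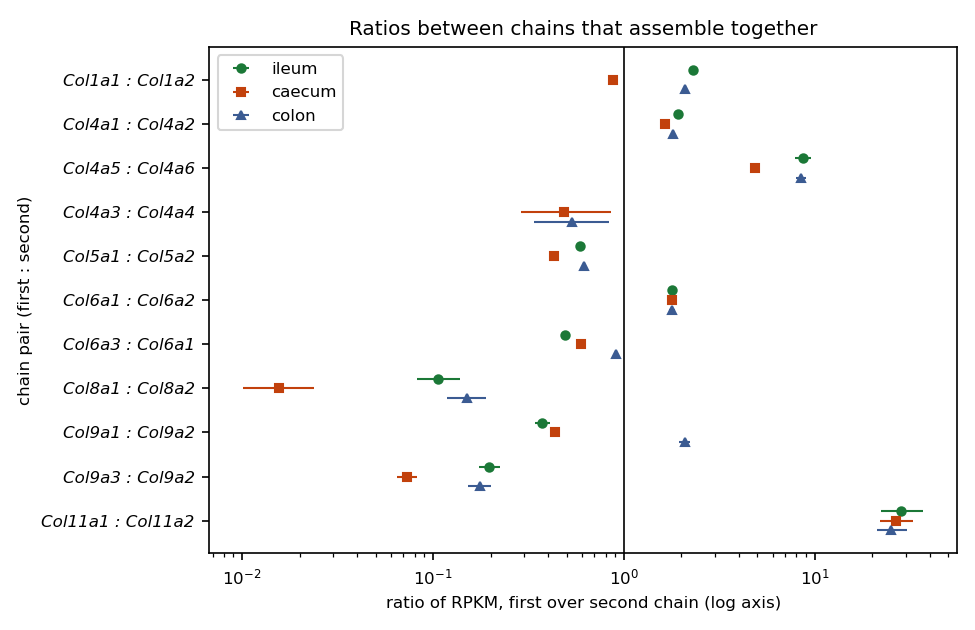
Ratio of RPKM of the first over the second chain (horizontal log axis) for 11 chain pairs (vertical axis) in ileum, caecum and colon, with 95% counting intervals and a line at 1. Col1a1 to Col1a2 lies at 0.873 in caecum and above 2 in ileum and colon, Col9a1 to Col9a2 lies at 2.08 in colon and below 0.5 elsewhere, and Col6a1 to Col6a2 is 1.78 in all 3 segments.

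FACIT genes held the highest ratio among the collagens. Of 9 genes, 4 were at least 2-fold higher in caecum than in ileum, against 4.59% of all genes, and 1 was lower, against 2.52%. The median log2 ratio was 0.91. Against colon, caecum was higher for 2, against 5.11% of all genes, and lower for 1, against 2.74% (median 0.38). Between colon and ileum 1 of 8 was higher in colon, against 4.04% (median -0.31). Col19a1 (ENSMUSG00000026141, mm9 chr1:24268729-24594311, minus strand), a chain reported in muscle and nervous tissue, had 4 counts in ileum, 210 in caecum and 8 in colon. Its scaled count in caecum was 40.4-fold that of ileum (15.5 to 150) and 20.8-fold that of colon (10.3 to 48.7), and even there its level was 0.472 RPKM.

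Col9a1 and Col9a2, partners of Col9a3 in the type IX collagen best known from cartilage, had different high segments. Col9a1 (ENSMUSG00000026147, mm9 chr1:24184449-24259577, plus strand) had 802, 2284 and 3936 counts in ileum, caecum and colon, which is 3.12, 6.92 and 15.1 RPKM. Colon was 4.77-fold above ileum (4.42 to 5.15) and 2.18-fold above caecum (2.07 to 2.29), and caecum was 2.19-fold above ileum (2.02 to 2.38). Col9a2 (mm9 chr4:120711990-120727927, plus strand) had 1296, 3168 and 1141 counts, or 8.36, 15.9 and 7.26 RPKM, and was highest in caecum, 2.20-fold above colon (2.05 to 2.35) and 1.88-fold above ileum (1.76 to 2.01). Col9a3 had 318, 289 and 250 counts, or 1.65, 1.16 and 1.28 RPKM, and was within 2-fold throughout. As a result Col9a1 to Col9a2 was 0.374 in ileum, 0.436 in caecum and 2.08 in colon (1.95 to 2.23). Per length of the longest coding transcript the ratios were 0.472, 0.550 and 2.63. The more abundant of these 2 chains per length was thus Col9a2 in the first 2 segments and Col9a1 in colon. Cartilage markers varied in both directions between colon and ileum. Of 5 compared, 4 were at least 2-fold higher in colon, against 4.04% of all genes, with a median log2 ratio of 1.54. Of these 4, Acan, Matn3 and Chad had 26 counts or fewer in every library. The other gene, Sox9, went the opposite way, with 864, 1055 and 717 counts and a colon over ileum ratio of 0.807 (0.729 to 0.891). In caecum over ileum 2 of 5 markers were higher, against 4.59%. The summed level over 7 genes was 7.20 RPKM in ileum, 9.20 in caecum and 12.9 in colon. Hapln1 alone made up 2.80, 4.64 and 8.89 of it. Hapln1, a link protein of the matrix, had 710, 1512 and 2283 counts, 3.12-fold higher in colon than in ileum, in the same order as Col9a1. Among the defining markers Matn1 was at 0 in all segments and Acan, the main cartilage proteoglycan, had 0, 6 and 26 counts. The part of cartilage cells in the levels of the type IX genes was not tested.

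Col12a1, Col14a1 and Col16a1, chains of fibril surfaces, were highest in ileum. Col14a1 (ENSMUSG00000022371, mm9 chr15:55139305-55352358, plus strand), which binds to type I fibrils, had 10812, 5627 and 8374 counts, which is 30.8, 12.5 and 23.5 RPKM. It was 2.50-fold higher in ileum than in caecum (2.42 to 2.58) and 1.88-fold higher in colon than in caecum (1.82 to 1.95). Col12a1, its close relative, had 15.1, 10.8 and 8.37 RPKM, and Col16a1, found with fibrils and near basement membranes, had 23.6, 17.8 and 16.0. Both were within 2-fold, and their lowest segment was colon, not caecum.

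A further 2 FACIT genes were high in caecum at low levels. Col22a1 (mm9 chr15:71626225-71864657, minus strand), a chain of tissue junctions such as that of muscle and tendon, had 682, 2000 and 864 counts and was 2.25-fold higher in caecum than in ileum (2.07 to 2.46). Col20a1 had 59, 165 and 70 counts and was 2.15-fold higher in caecum than in ileum (1.59 to 2.95). Against colon, caecum was 1.83-fold higher for Col22a1 (1.69 to 1.99) and 1.86-fold for Col20a1 (1.40 to 2.50).

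The type VI genes were higher in ileum as a group. Type VI collagen forms beaded filaments around cells, with Col6a1 and Col6a2 joined by another, longer chain. Col6a1 (ENSMUSG00000001119, mm9 chr10:76171537-76188913, minus strand) had 15042 counts in ileum, 9750 in caecum and 7730 in colon, which is 68.4, 34.4 and 34.7 RPKM. Col6a2 (ENSMUSG00000020241, mm9 chr10:76058507-76086375, minus strand) had 15988, 10356 and 8220 counts, which is 38.3, 19.3 and 19.4 RPKM. Each gene was 2.01-fold higher in ileum than in caecum (1.96 to 2.06) and 2.0-fold higher than in colon (1.95 to 2.06), so they lie at the 2-fold line and drop below it when libraries are scaled by total counts. The ratio of Col6a1 to Col6a2 was 1.78 in all 3 segments, or 1.07 per length of the longest coding transcript. They are neighbours on the same strand, 85161 bases apart with no other feature of the table between them. Their start regions are given as RefSeq has them on GRCm38.p6, 5′ to 3′ on the strand of the gene, without exon bases, as the bases before 2 genes whose ratios between segments matched.
Col6a1, chr10:76726169-76726294, minus strand: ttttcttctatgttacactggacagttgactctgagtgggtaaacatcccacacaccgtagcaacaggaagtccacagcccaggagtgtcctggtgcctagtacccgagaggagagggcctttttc
Col6a2, chr10:76623631-76623880, minus strand: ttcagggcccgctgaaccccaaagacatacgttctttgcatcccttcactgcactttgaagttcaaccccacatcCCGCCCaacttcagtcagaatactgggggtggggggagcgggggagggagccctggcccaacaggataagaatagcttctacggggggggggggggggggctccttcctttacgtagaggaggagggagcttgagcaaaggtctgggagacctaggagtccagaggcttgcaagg
Capitals mark GGGCGG read from the other strand, found in the Col6a2 stretch 175 bases before the start. RefSeq gives Col6a2 a second start, not printed here, with GGGCGG on the other strand 67, 15 and 11 bases before it. The printed Col6a1 stretch ends 125 bases before its start, while that of Col6a2 runs up to its start. The 2 stretches thus cover different positions.

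The third chain was not parallel to them. Col6a3 had 20072, 15832 and 19062 counts, or 33.5, 20.6 and 31.4 RPKM, and colon was 1.08-fold below ileum and 1.52-fold above caecum (1.49 to 1.55). Its ratio to Col6a1 was 0.491 in ileum, 0.597 in caecum and 0.906 in colon. Col6a4, another long chain that can take the place of Col6a3, had 5288, 2595 and 3650 counts and was 2.65-fold higher in ileum than in caecum (2.53 to 2.78). Col6a6 had only 32, 42 and 12 counts, and colon was lowest, 2.74-fold below ileum (1.38 to 5.85) and 2.77-fold below caecum (1.43 to 5.78).

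Markers of smooth muscle and pericytes differed between the segments too. Over 8 smooth muscle markers the summed level was 1173 RPKM in ileum, 450 in caecum and 614 in colon. Of the 8, 6 were at least 2-fold lower in caecum than in ileum, against 2.52% of all genes. In colon 5 were lower than in ileum, against 4.29%. Des, the muscle intermediate filament gene, was highest in caecum, at 9.19, 12.8 and 8.23 RPKM. Over 6 pericyte markers the sum was 89.1, 43.0 and 84.1 RPKM. Of these markers 3 were at least 2-fold lower in caecum than in ileum, against 2.52% of all genes. None was apart between colon and ileum, against 8.33%. Their part in the higher ileal levels of the type VI genes, Col14a1, Col24a1 and Col28a1 was not tested. Markers of gut epithelium summed to 217, 226 and 251 RPKM, and those of endothelium to 62.8, 62.8 and 76.8. Of the 9 epithelial markers 1, Krt19, was at least 2-fold higher in colon than in ileum, by 2.16-fold, against 4.04% of all genes. None was apart between caecum and ileum, against 7.11%. Of the 8 endothelial markers none was apart in either pair. Summed markers of enteric neurons and glia were 198, 201 and 121 RPKM, and those of mesothelium, the outer lining, 57.6, 81.6 and 102. The part of any of these cell types in the levels of Col4a5 and Col4a6 was not tested.

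Genes of the short-chain and remaining types varied in both directions. Col8a1 and Col8a2 form hexagonal lattices, as in the membrane under the corneal endothelium, and they went opposite ways in caecum. Col8a1 had 68, 24 and 85 counts in ileum, caecum and colon and was lower in caecum, by 3.69-fold against ileum (2.28 to 6.14) and 4.48-fold against colon (2.82 to 7.37). Col8a2 had 556, 1328 and 495 counts and was 2.12-fold higher in caecum than in colon (1.91 to 2.36) and 1.84-fold higher than in ileum (1.66 to 2.03). Their ratio was 0.107 in ileum, 0.0156 in caecum and 0.151 in colon, a 6.77-fold lower value in caecum than in ileum.

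Col28a1, a chain related to type VI, had 128, 31 and 30 counts. It was 5.37-fold higher in ileum than in caecum (3.60 to 8.23) and 4.39-fold higher than in colon (2.93 to 6.77). Col17a1, a membrane-spanning chain of the hemidesmosome that anchors basal epithelial cells, had 64, 66 and 136 counts. Colon was 2.60-fold above caecum (1.93 to 3.55) and 2.07-fold above ileum (1.52 to 2.83). Markers of basal keratinocytes summed to 1.33, 1.52 and 5.34 RPKM over 6 genes, with Krt15 at 51, 56 and 337 counts and Krt5, a defining keratin, at 0, 6 and 3. Their part in the level of Col17a1 was not tested.

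The other membrane-spanning chains and the multiplexins, basement membrane collagens whose ends release endostatin-like fragments, were within 2-fold. Col23a1 had 21.7, 33.5 and 29.0 RPKM in ileum, caecum and colon, Col13a1 had 1.99, 3.0 and 1.67, and Col25a1 had 4.13, 3.46 and 4.84. Col18a1 had 30.0, 29.9 and 39.5 RPKM and Col15a1 had 12.2, 12.4 and 14.9, so colon was highest for both multiplexins. Col7a1, the anchoring fibril chain under stratified epithelia, had 142, 328 and 148 counts and was 1.78-fold higher in caecum than in ileum (1.45 to 2.18).

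Neighbouring collagen genes could differ, as Col9a1 and Col19a1 did between caecum and colon. Within 100 kb of each other lay 8 pairs, with no other feature of the table between the members of a pair. Besides the head-to-head type IV pairs and Col6a1 with Col6a2, Col3a1 and Col5a2 lie tail to tail, 24614 bases apart, and Col6a4, Col6a5 and Col6a6 lie in a row on 1 strand. Col9a1 and Col19a1 lie tail to tail with 9151 bases between them. Their log2 ratios of caecum over colon were -1.12 and 4.38, so Col9a1 was higher in colon and Col19a1 in caecum. For caecum over ileum both were higher in caecum, at 1.13 and 5.33. Col19a1 had only 4 counts in ileum and 8 in colon.

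Genes that modify, fold, cut, cross-link or bind collagen were compared in the same way. Of 65 genes listed, 64 were in the table and 60 were compared. Between caecum and ileum 2 were at least 2-fold higher in caecum, against 4.59% of all genes, and 5 lower, against 2.52% (median log2 ratio -0.08). Between caecum and colon 5 were higher in caecum, against 5.11%, and 1 lower, against 2.74% (-0.002). Between colon and ileum 1 was higher in colon, against 4.04%, and 5 lower, against 4.29% (-0.04).

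Enzymes and chaperones of the secretory pathway were close to level. The 14 genes of prolyl and lysyl modification summed to 441, 431 and 454 RPKM in ileum, caecum and colon, led by P4hb, the shared subunit of prolyl hydroxylase, at 151, 137 and 151. P4ha3, a catalytic subunit of that enzyme, was an exception with 873, 2590 and 2419 counts, 2.28-fold higher in caecum than in ileum (2.11 to 2.47) and 2.69-fold higher in colon than in ileum (2.49 to 2.91). Glt25d2, a galactosyltransferase that glycosylates hydroxylysine, was 2.04-fold higher in caecum than in colon (1.68 to 2.49). The 6 genes of folding and secretion, among them Serpinh1, the collagen chaperone, at 221, 226 and 222 RPKM and Hspa5 at 304, 290 and 280, had no member apart.

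Of 12 compared genes that cut propeptides or cross-link fibrils, 4 stood apart in at least 1 of the 3 pairs, against 13.7% of all genes. Bmp1, which removes the C-terminal propeptide, had 25.3, 36.8 and 29.1 RPKM, within 2-fold. Its relative Tll1 was 2.17-fold higher in caecum than in colon (1.89 to 2.50). Adamts14, which cuts the N-terminal propeptide, was 2.20-fold higher in ileum than in caecum (1.67 to 2.93). Pcolce2, an enhancer of the C-terminal cut, had only 46, 42 and 22 counts and was 2.15-fold higher in ileum than in colon (1.27 to 3.76). The 5 lysyl oxidase genes summed to 69.1, 53.2 and 46.6 RPKM, with Loxl2 highest at 53.8, 36.8 and 32.4. Loxl4 was 2.33-fold higher in ileum than in caecum (1.83 to 2.99) and 3.55-fold higher than in colon (2.62 to 4.89).

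**Figure D5:**
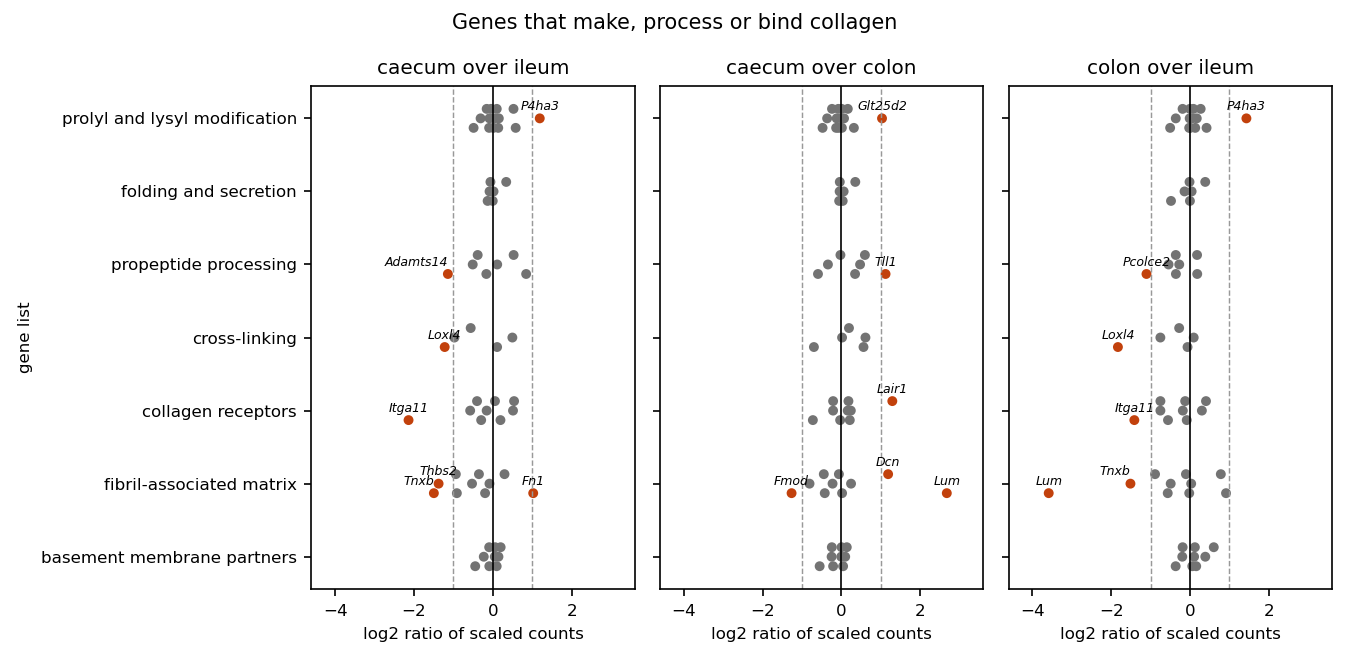
Log2 ratio of scaled counts (horizontal axis) for 60 compared genes that make, process or bind collagen, in 7 lists (vertical axis), with 1 panel per pair of segments and dashed lines at 2-fold. Coloured, named points are 2-fold or more apart, among them Lum, which lies left of the line in colon over ileum and right of it in caecum over colon.

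Receptors and partners of the matrix showed a few differences. Itga11, which binds fibrillar collagen on mesenchymal cells, had 176, 52 and 68 counts and was 4.40-fold higher in ileum than in caecum (3.21 to 6.12) and 2.66-fold higher than in colon (2.0 to 3.58). Its partner Itgb1 had 220, 181 and 211 RPKM. Lair1, an inhibitory receptor of immune cells, had only 36, 68 and 22 counts and was 2.45-fold higher in caecum than in colon (1.49 to 4.15). Among small proteoglycans that coat fibrils, Lum had 8862, 6122 and 760 counts, 12.0-fold higher in ileum than in colon (11.1 to 12.9) and 6.37-fold higher in caecum than in colon (5.91 to 6.88). Dcn was 2.27-fold higher in caecum than in colon (2.13 to 2.42), while Fmod was 2.40-fold higher in colon than in caecum (2.18 to 2.66). Sparc, which binds fibrillar collagen, was level at 191, 168 and 197 RPKM.

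The remaining fibril-associated genes apart were glycoproteins. Tnxb was 2.82-fold higher in ileum than in caecum (2.59 to 3.08) and 2.85-fold higher than in colon (2.60 to 3.14), and Thbs2 was 2.60-fold higher in ileum than in caecum (2.43 to 2.77). Fn1, the fibronectin gene, was 2.03-fold higher in caecum than in ileum (2.0 to 2.06), a value that falls to 1.96 when centred on genes of like base composition. The 9 partners of type IV collagen in basement membranes summed to 226, 224 and 239 RPKM and none was apart.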

How the data were processed

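Paired-end RNA-seq of polyadenylated RNA (TruSeq, Genome Analyzer IIx, 100 bp reads) was analysed from the gene table the authors deposited. Of tools and builds, the notes of the submitters on processing list Bowtie 0.12.7, DESeq and mm9 without their roles. The deposited table gives expected counts and RPKM per gene, per the file headers, in 2 columns for each segment. Those 2 columns differed by less than counting noise (mean squared difference over counting variance 0.423 in ileum, 0.448 in caecum and 0.437 in colon), although the header calls them replicates, so they were averaged, rounded and counted as 1 library. No per-sample column was left unused (0). The members and gene lists were chosen with earlier results of these data known.

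Counts were scaled by TMM (edgeR 4.0.16, R 4.3.3). Ratios were computed over every feature of the table, with exact binomial intervals for counting error only, a minimum of 20 counts in the higher library and a threshold of 2-fold, and no test was run. The calculation was checked on counts simulated with counting error alone, the error that the intervals assume. That check therefore covers no variation between samples. Every collagen gene at 20 counts or more in a library was named, with folds for those apart. Of the other pathway genes all those apart were named, with up to 3 more per list by mean RPKM. RPKM in the deposited table is relative to the authors' gene models, whose lengths are not listed. They differ from the longest coding transcripts of GENCODE vM21 (GRCm38), so levels between genes carry that uncertainty. Coordinates of genes are those of the table (mm9, start shifted to 1-based), and promoter sequences are RefSeq's on GRCm38.p6. Alternatives were median-of-ratios, total-count and upper-quartile scaling, the RPKM ratio, other minimums, an interval wholly beyond 2-fold, and each column alone. Centring by GC content (10 groups, with 14745 of 18005 tested genes matched) and counts per transcript length were chosen after seeing the data.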

Additional observations from a re-analysis of the deposited data

How the results depend on the processing

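No gene ratio past 2-fold reversed under any alternative run. Col6a1 and Col6a2, at the 2-fold line, left the calls in caecum over ileum and in colon over ileum with total-count scaling and with the RPKM ratio, and in colon over ileum also with upper-quartile scaling. Under each of these 3 scalings the collagen genes lower in colon than in ileum were 3 in place of 5. With either column left out in turn that count ranged from 3 to 5, those higher in colon from 5 to 6, those lower in caecum than in ileum from 6 to 7, and the pathway genes lower in colon from 4 to 5. The column whose removal lowered the count in colon over ileum was the first, without which Col17a1, Col6a1 and Col6a2 fell short. Requiring the interval wholly beyond 2-fold removed Col17a1, Col6a6 and Col8a2 from caecum over colon, leaving 3 higher in caecum. It removed Col17a1, Col6a1, Col6a2 and Col6a6 from colon over ileum, leaving 2 lower in colon, and Col20a1, Col4a3, Col6a1 and Col6a2 from caecum over ileum. Centring by GC content removed Col8a2 from caecum over colon and left 1 pathway gene higher in caecum than in ileum in place of 2, since Fn1 fell below 2-fold.

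Over all genes, higher and lower, dropping the count minimum gave 1838 and 1612 for caecum over ileum, 1876 and 1845 for caecum over colon, and 1759 and 2002 for colon over ileum. A minimum of 100 gave 439 and 268, 563 and 241, and 336 and 474. Intervals wholly beyond 2-fold gave 397 and 233, 512 and 229, and 347 and 422. Fewer or more genes pass each minimum by construction. With either column left out the counts ranged from 845 to 856 and 462 to 476, from 935 to 940 and 500 to 502, and from 721 to 742 and 767 to 774.

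Per length of the longest coding transcript, fibrillar chains held 61.3%, 66.2% and 65.4% of collagen in ileum, caecum and colon, and Col1a1 to Col1a2 was 1.12, 0.426 and 1.01. Of the chain ratios, 21 left their counting interval with this length and 11 stayed within it. The table lists no gene lengths, and the chain ratio intervals used the lengths implied by its counts and RPKM. For Col1a2 the implied length was 12146 bases, against 5348 in the longest coding transcript. For Col6a2 it was 8327 against 4653. Ratios close to 1 changed sides of 1 under some scalings, among them Col15a1 and Col6a6 for caecum over ileum and Col4a2 and Col5a2 for colon over ileum. Depth limits Col4a3, Col4a4, Col6a6 and Col8a1, and the pathway genes Pcolce2 and Lair1, with under 100 counts in each library. No paired analysis was possible because each segment is 1 sample and its numbered columns are read as 1 library.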

Other observations

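A collagen gene outside the symbol rule is listed under an older name. Emid2, now called Col26a1, had 2258 counts in ileum, 4622 in caecum and 3178 in colon, and was 1.57-fold higher in caecum than in ileum (1.50 to 1.66, counting error only).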
